A study of Equus caballus with 23 samples.

Results

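The genes described here encode the proteins that bring other proteins into mitochondria and that put the respiratory chain together. They were chosen by symbol alone from the genes of the authors' annotated tables. The symbol had to begin with TIMM, TOMM, NDUFAF, LYRM, ATPAF, UQCC or COA and a digit. Named SCO, SURF, BCS1L and COX assembly factors were added. The rule itself uses no measured value, but it was set with earlier results of these data known. The rule found 54 genes among the 26991 genes counted and the 8842 that carry a symbol. All 54 passed the filter on low counts. TIMM23, UQCC2 and COX17 had no entry under these symbols, so they are missing from the set. RNA was sequenced from needle biopsies of the gluteus medius, a hindquarter muscle, of Arabian horses in race training. The 5 libraries of T0 came from untrained horses aged 2.5 years, 3 of them male and 2 female. The 8 libraries of T1 came from horses aged 3 years, 4 male and 4 female, that had finished the phase of hard galloping and had not yet raced. The 10 libraries of T2 came from horses aged 3 years, 7 male and 3 female, sampled when the racing season closed. No drug or allele separates the groups, and age differs between T0 and the later groups together with training. Whether any horse gave more than 1 biopsy is not in the labels. The p-values therefore rest on the spread among libraries alone. They treat each library as a separate horse, and would not hold as given if horses were sampled more than once.

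Nearly all mitochondrial proteins are made in the cytosol. The TOM complex carries them across the outer membrane, small TIM chaperones escort membrane proteins through the intermembrane space, and the TIM22 and TIM23 translocases insert them into the inner membrane or pass them to the matrix. Assembly factors then join nuclear and mitochondrial subunits into complexes I, III, IV and V, load copper, haem and iron-sulphur clusters, and leave the finished complex, so they are not part of the chain itself. In muscle this machinery serves fibres that differ widely in mitochondrial content, with slow fibres generally holding more than fast glycolytic ones.

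Total counts were 12604125 to 17477172 in T0, 15417737 to 23641809 in T1 and 12185608 to 19804694 in T2, and mitochondrially encoded genes took 36.0% to 54.9%, 44.7% to 56.7% and 42.5% to 52.3% of them. Levels are given as CPM, counts per library size after TMM scaling, which sets the sizes so that most genes do not move. The summed level of the 54 genes was 961 to 1254 CPM in T0, 1086 to 1707 CPM in T1 and 1130 to 1636 CPM in T2, with medians of 1076, 1217 and 1473 CPM. T1 library m3 stood apart from its group, with 1707 CPM against 1316 CPM in the next highest T1 library. Its TMM factor, 0.660, was the lowest of T1, where the factors ran up to 1.07. Before TMM scaling the 54 genes took 0.113% of the total counts of m3, within the T1 range of 0.106% to 0.128%. The high sum of m3 is thus relative to its TMM scaling. A fibre score, the mean log2 CPM of 15 slow fibre genes minus that of 13 fast fibre genes, also moved with time. More than 1 of the fast entries carries the symbol MYH2, with log2 fold changes of -3.42 and 0.17 in T1 minus T0. MYH4 and PVALB had no entry under these symbols. The score was -5.41 to -3.66 in T0, -2.47 to 3.85 in T1 and -4.71 to -2.63 in T2, and m3 again held the T1 maximum. The score was higher in T1 than in T0 by 3.33 (exact two-sided permutation test, p = 0.00155, adjusted over 3 pairs p = 0.00233) and lower in T2 than in T1, with a difference of -2.75 (p = 4.57e-05, adjusted p = 0.000137). Of the 15 slow genes, 13 were higher in T1 than in T0, 11 lower in T2 than in T1 and 1 higher in T2 than in T0. Of the 13 fast genes, 5 were lower in T1 than in T0 and 11 higher in T2 than in T1. Between T2 and T0 the score differed by 0.576 (exact permutation, p = 0.145, adjusted p = 0.145).

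**Figure D1:**
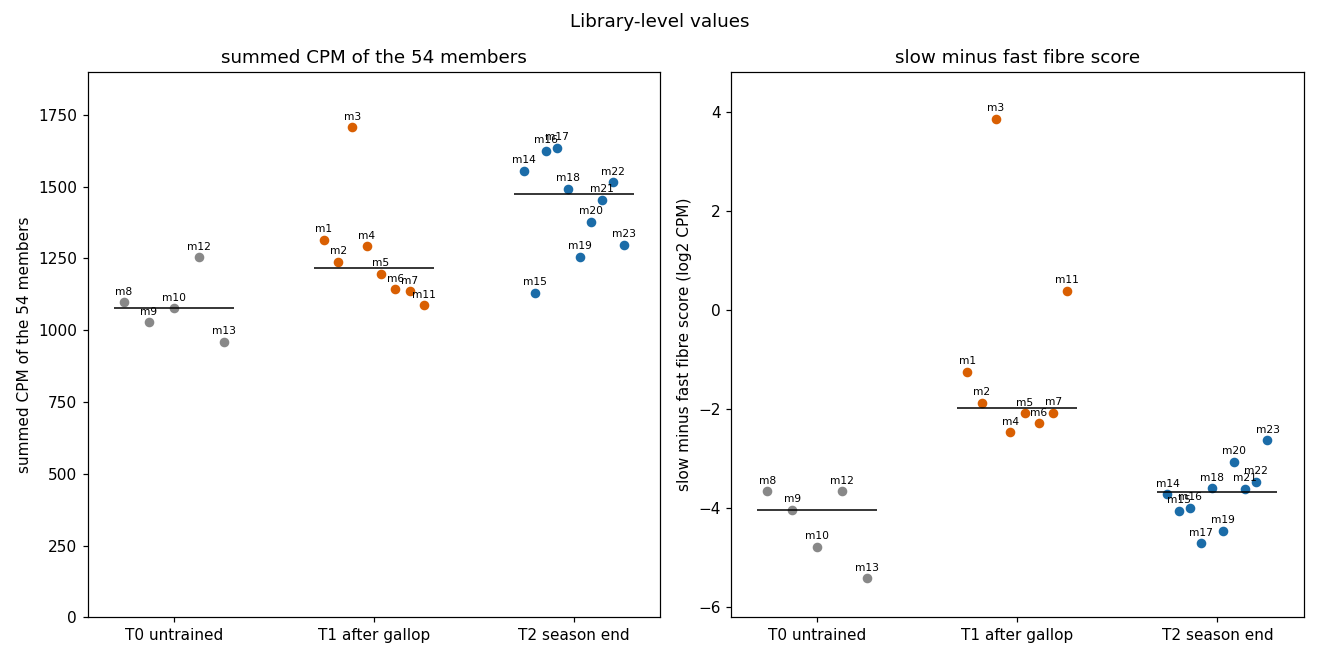
Each point is 1 library, labelled with its library number, the left panel gives the summed CPM of the 54 genes, the right panel the slow minus fast fibre score in log2 CPM, and the line is the group median. The median sum is 1076 CPM in T0, 1217 CPM in T1 and 1473 CPM in T2, while the fibre score is highest in T1, where library m3 reaches 1707 CPM and a score of 3.85.

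Muscle of horses at the end of the season held more transcript of 24 of these genes, relative to other genes, than muscle of untrained horses. Of these, 23 came from the import stages and from complexes I, III and IV and the other was LYRM5, while the 2 factors of the ATP synthase did not pass the test. The mean of T2 was above both other means in 41 genes and that of T1 in 13, and the mean of T0 was never the highest and was the lowest in 43. Between T2 and T0, 24 of the 54 genes were higher (44.4%, against 6.73% of all 11545 genes tested) and 0 were lower (against 9.3% of all genes). No gene was lower at an unadjusted p under 0.05 either, and DESeq2 and limma also called 0 lower. The genes' median log2 fold change was 0.40, against -0.03 for all genes, and 52 of 54 were above 0 (96.3%, against 46.6%). The test was edgeR's quasi-likelihood test on the counts with Benjamini-Hochberg adjustment over all genes tested and a threshold of 0.05, and every adjusted p below comes from it unless another tool is named. Log2 fold changes are given ± SE.

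In T1 minus T0, 6 genes were higher (11.1%, against 3.57% of all genes) and 1 was lower (1.85%, against 3.34%), with a median log2 fold change of 0.21 against -0.02 for all genes and 45 of 54 genes above 0 (83.3%, against 47.3%). In T2 minus T1, 15 were higher (27.8%, against 12.6%) and 2 were lower (3.70%, against 15.1%), with a median of 0.17 against -0.01 and 41 genes above 0 (75.9%, against 49%). Of the 24 genes higher in T2 than in T0, 11 were also higher in T2 than in T1, 1 (UQCC1) was also higher in T1 than in T0, and 12 passed in T2 minus T0 only. The comparisons share libraries, so these counts are not independent of each other. In 0 genes did every library of the later group lie below every library of the earlier one, against 1.12% of all genes in T1 minus T0, 1.45% in T2 minus T1 and 1.72% in T2 minus T0. In all, 34 genes passed in at least 1 comparison and 20 in none.

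These directions are relative to the genes as a whole. With total counts in place of TMM, the median of all genes moved by -0.40 in T1 minus T0, 0.14 in T2 minus T1 and -0.26 in T2 minus T0. The median of the 54 genes became -0.20, 0.31 and 0.13, so that in T1 minus T0 its direction flipped. The distance of the 54 genes from all genes was 0.23, 0.18 and 0.43 with TMM and 0.22, 0.17 and 0.42 with total counts. With total counts 0 of the 54 genes were higher and 7 lower in T1 minus T0, 24 higher and 0 lower in T2 minus T1, and 1 higher and 0 lower in T2 minus T0. Of all 11545 genes, 127 were then higher and 3250 lower, 2073 and 632, and 46 and 1549 in the same comparisons. Among all genes called, 3.76%, 76.6% and 2.88% were then higher in these comparisons, against 51.6%, 45.5% and 42.0% with TMM. With totals of the genes outside the mitochondrial genome the counts were 0 higher and 1 lower, 12 and 1, and 3 and 0, and LYRM7, TOMM7 and COA6 were the 3 genes higher in T2 than in T0. Of all 11583 genes tested with that scaling, 194 were higher and 453 lower, 1250 and 1200, and 196 and 823 in these comparisons.

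**Figure D2:**
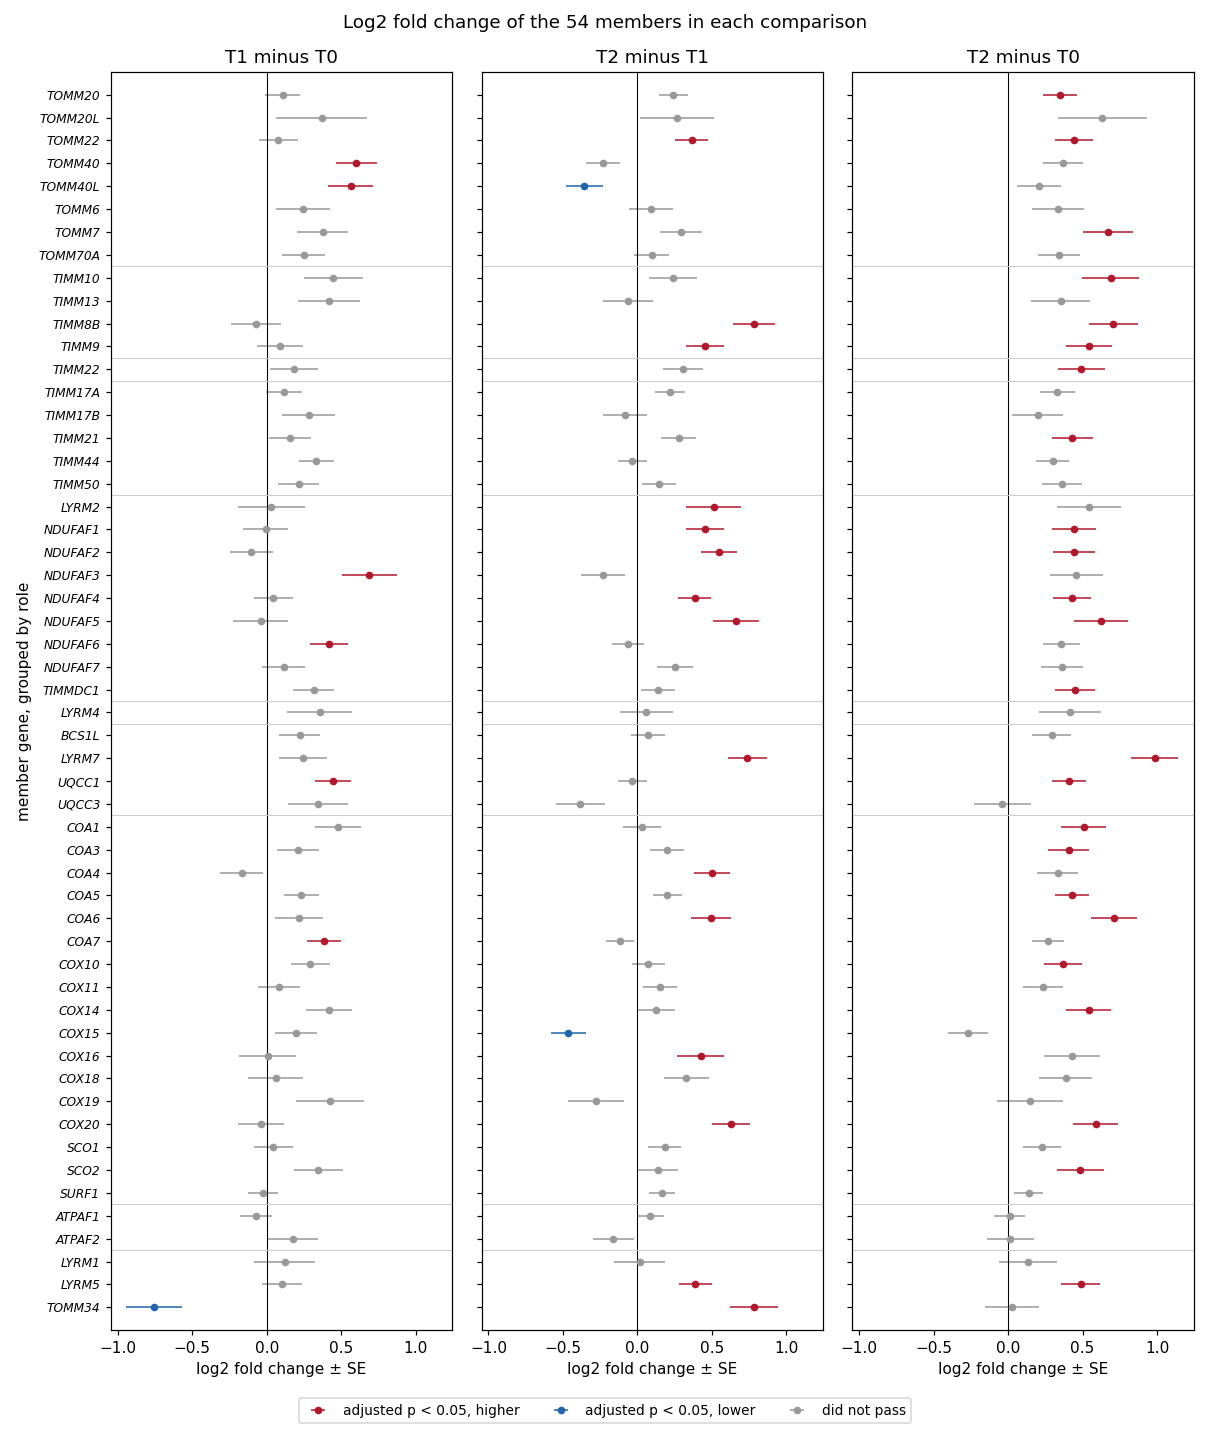
Points give the log2 fold change and bars its SE for each of the 54 genes in T1 minus T0, T2 minus T1 and T2 minus T0, with genes grouped by role and colour marking those past an adjusted p of 0.05. Of the 54 genes, 45 lie above 0 in T1 minus T0, 41 in T2 minus T1 and 52 in T2 minus T0.

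At the outer membrane, the channel gene and its paralog had their highest means after the gallop phase, and all the other TOM genes had theirs at the end of the season. Of the 8 TOM genes, 2 were higher in T1 than in T0, 1 was higher and 1 lower in T2 than in T1, and 3 were higher in T2 than in T0. Over all genes 3.57% were higher in T1 than in T0, 12.6% higher and 15.1% lower in T2 than in T1, and 6.73% higher in T2 than in T0. The TOM counts in T2 minus T1 are near those shares. Counts of the groups, lists and markers below stand against the same shares. TOMM40 (ENSECAG00000013993, chromosome 10, 15480333 to 15485631, in the authors' coordinates) encodes the pore through which nearly all precursors pass. Its values were 13.2, 11.5, 12.995, 11.98 and 9.95 CPM in the 5 T0 libraries. For TOMM40, the lowest, median and highest CPM were 15.2, 17.1 and 24.3 in T1 and 12.5, 14.6 and 22.3 in T2. Every T1 library lay above every T0 library, while T2 overlapped both groups. TOMM40 was 1.52-fold higher in T1 than in T0, log2 0.60 ± 0.14 (adjusted p = 0.00985). Its T2 minus T1 and T2 minus T0 values were -0.23 ± 0.11 (adjusted p = 0.125) and 0.37 ± 0.13 (adjusted p = 0.0564). Only 2 of the 54 genes had no overlap between T1 and T0 with T1 higher (3.70%, against 1.86% of all genes), and the other was UQCC1.

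TOMM40L, a paralog of the pore, had 9.34, 7.74, 5.89, 5.51 and 4.84 CPM in the 5 T0 libraries. For TOMM40L, the lowest, median and highest CPM were 7.95, 9.40 and 13.6 in T1 and 5.91, 7.92 and 8.83 in T2. The T1 libraries were the high ones, and they overlapped both other groups. TOMM40L was higher in T1 than in T0 by 0.56 ± 0.15 (adjusted p = 0.0245) and lower in T2 than in T1, at -0.36 ± 0.12 (adjusted p = 0.033). RSEM divides reads that match similar genes, so the split between TOMM40 and TOMM40L, TOMM20 and TOMM20L, or TIMM17A and TIMM17B is less certain where their sequences are alike. Without T0 libraries m10, m12 and m13 in turn the T1 minus T0 call of TOMM40L ended, with adjusted p up to 0.0756. Its T2 minus T1 call ended without T1 libraries m2, m4 and m5 and T2 libraries m14, m16 and m22, with adjusted p up to 0.0943. The T1 minus T0 call of TOMM40 held in all 23 fits that left out 1 library, with adjusted p up to 0.0332.

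TOMM22, the central receptor that also organises the pore, had 38.004, 37.3, 39.8, 45.5 and 33.8 CPM in the 5 T0 libraries. For TOMM22, the lowest, median and highest CPM were 33.99, 38.3 and 58.7 in T1 and 41.3, 52.7 and 65.4 in T2. Most T2 libraries lay above most libraries of T0 and T1, with overlap. TOMM22 was higher in T2 than in T1 by 0.36 ± 0.11 (adjusted p = 0.0141) and higher in T2 than in T0 by 0.44 ± 0.13 (adjusted p = 0.0213). TOMM7, a small subunit that regulates the stability of the complex, had 60.4, 50.7, 63.9, 59.8 and 43.9 CPM in the 5 T0 libraries. For TOMM7, the lowest, median and highest CPM were 55.0, 65.4 and 123 in T1 and 63.0, 94.0 and 105 in T2. Its highest T1 value was that of library m3, and T2 values were mostly above T0. TOMM7 was 1.59-fold higher in T2 than in T0, log2 0.67 ± 0.17 (adjusted p = 0.0113).

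TOMM20, the receptor for presequences, averaged 47.9 ± 8.14 CPM in T0, 51.5 ± 6.995 CPM in T1 and 60.9 ± 6.78 CPM in T2 (SD, n = 5, 8 and 10 here and in the means that follow). Its level was higher in T2 than in T0 by 0.35 ± 0.11 (adjusted p = 0.039). The receptor for carrier proteins, TOMM70A, did not pass in any comparison, with log2 fold changes of 0.25, 0.09 and 0.34 in T1 minus T0, T2 minus T1 and T2 minus T0. It had the second highest mean count per library of the 54 genes, 1396, after COA3 with 1539. TOMM6, another small subunit, did not pass either, with 0.24, 0.09 and 0.34. TOMM20L, a paralog of TOMM20, had the lowest mean count per library, 18.5, and its T2 minus T0 value of 0.63 ± 0.30 (adjusted p = 0.14) was the largest of those that did not pass. The T2 minus T0 call of TOMM22 ended without T0 library m13 (adjusted p = 0.0672). That of TOMM20 ended without T0 libraries m8, m9, m10 and m13 and T2 libraries m16, m17, m18, m21 and m22 in turn (up to 0.116), and that of TOMM7 held in all 23 such fits.

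Of the 4 small TIM chaperones, 3 were higher in T2 than in T0, 2 of them also higher in T2 than in T1, and 0 passed the threshold in T1 minus T0. TIMM8B (ENSECAG00000014836, chromosome 7, 20613381 to 20615398), which with TIMM13 shields precursors in the intermembrane space, had 47.8, 35.4, 42.8, 34.8 and 28.3 CPM in the 5 T0 libraries. For TIMM8B, the lowest, median and highest CPM were 23.4, 37.3 and 40.9 in T1 and 41.1, 61.5 and 84.7 in T2. The T2 libraries all lay above all T1 libraries, and T0 overlapped both. TIMM8B was 1.72-fold higher in T2 than in T1, log2 0.78 ± 0.14 (adjusted p = 0.000297), and 1.63-fold higher in T2 than in T0, 0.71 ± 0.16 (adjusted p = 0.00754). It was the 1 gene of the 54 whose T2 and T1 libraries did not overlap with T2 higher (1.85%, against 0.788% of all genes). Its partner TIMM13 did not pass, with -0.06 ± 0.17 (adjusted p = 0.808) in T2 minus T1 and 0.35 ± 0.20 (adjusted p = 0.221) in T2 minus T0.

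TIMM9 and TIMM10 form the chaperone that feeds carrier proteins to TIM22. TIMM9 had 17.6, 14.2, 17.05, 24.2 and 12.8 CPM in the 5 T0 libraries. For TIMM9, the lowest, median and highest CPM were 14.8, 17.1 and 25.9 in T1 and 18.1, 26.3 and 28.8 in T2. Its T2 values were mostly above both earlier groups, with overlap, and it was higher in T2 than in T1 by 0.45 ± 0.13 (adjusted p = 0.0116) and in T2 than in T0 by 0.54 ± 0.15 (adjusted p = 0.0203). TIMM10 averaged 12.9 ± 3.48 CPM in T0, 17.7 ± 5.72 CPM in T1 and 20.8 ± 4.31 CPM in T2 and was higher in T2 than in T0 by 0.69 ± 0.19 (adjusted p = 0.0184). In T1 minus T0 its value of 0.45 ± 0.20 (adjusted p = 0.173) did not pass, and its highest T1 library was m3. TIMM22, the channel of the carrier translocase, averaged 4.96 ± 0.586 CPM in T0, 5.66 ± 1.30 CPM in T1 and 6.99 ± 1.22 CPM in T2 and was higher in T2 than in T0 by 0.49 ± 0.16 (adjusted p = 0.0353). In the annotation the span of TIMM22 overlaps that of ABR and TIMM9 ends 196 bases from TOMM20L, and the library kit does not mark strand, so reads of such neighbours may not be fully told apart. Without T0 library m13 the T2 minus T0 calls of TIMM9, TIMM10 and TIMM22 ended, with adjusted p of up to 0.0715, 0.0658 and 0.103. The call of TIMM9 also ended without T0 library m9, and that of TIMM22 without T0 library m10 and T2 libraries m14, m16 and m17.

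Of the 5 genes of the presequence translocase, 1 passed the threshold, in T2 minus T0, where the median log2 fold change of the 5 was 0.33. TIMM21, which links the translocase to respiratory chain assembly, averaged 21.5 ± 3.56 CPM in T0, 23.9 ± 4.02 CPM in T1 and 28.95 ± 5.27 CPM in T2. It was higher in T2 than in T0 by 0.43 ± 0.14 (adjusted p = 0.0329). That call ended without T0 libraries m9, m10 and m13 and T2 libraries m16, m17, m18 and m22 in turn, with adjusted p up to 0.0986. All 5 genes were above 0 in T2 minus T0. The receptor TIMM50 had 0.36 ± 0.13 (adjusted p = 0.0632) there, TIMM44, which tethers the import motor, had 0.30 ± 0.11 (adjusted p = 0.0648), and the channel subunits TIMM17A and TIMM17B had 0.33 ± 0.12 (adjusted p = 0.0537) and 0.20 ± 0.17 (adjusted p = 0.441). In T1 minus T0 the 5 values ran from 0.11 for TIMM17A to 0.33 for TIMM44, and in T2 minus T1 from -0.08 for TIMM17B to 0.28 for TIMM21.

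Of the 9 assembly factors of complex I, the NADH dehydrogenase, NDUFAF3 and NDUFAF6 were higher in T1 than in T0. NDUFAF1, NDUFAF2, NDUFAF4, NDUFAF5 and LYRM2 were higher in T2 than in T1, and NDUFAF1, NDUFAF2, NDUFAF4, NDUFAF5 and TIMMDC1 were higher in T2 than in T0. No gene of the group was lower in any comparison.

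NDUFAF3 (ENSECAG00000019013, chromosome 16, 37998629 to 37999594), which acts with NDUFAF4 early, on the module that binds ubiquinone, had 29.1, 23.1, 24.8, 32.5 and 24.9 CPM in the 5 T0 libraries. For NDUFAF3, the lowest, median and highest CPM were 30.7, 37.5 and 80.2 in T1 and 29.1, 34.6 and 48.0 in T2. T1 library m3 was far above the rest of its group, and the T1 and T0 libraries overlapped. NDUFAF3 was 1.61-fold higher in T1 than in T0, log2 0.69 ± 0.19 (adjusted p = 0.0248). Without m3 the call held at 0.51, the lowest value in any fit that left out 1 library. NDUFAF6, which acts early in assembly, had 10.03, 7.69, 7.58, 8.06 and 6.35 CPM in the 5 T0 libraries. For NDUFAF6, the lowest, median and highest CPM were 9.24, 10.5 and 13.2 in T1 and 7.95, 9.70 and 12.6 in T2. NDUFAF6 was higher in T1 than in T0 by 0.42 ± 0.13 (adjusted p = 0.0482). The groups overlapped, and library m4 was the highest of T1. NDUFAF4, the partner of NDUFAF3, had 0.04 ± 0.13 (adjusted p = 0.889) in T1 minus T0.

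NDUFAF2 (ENSECAG00000017527, chromosome 21, 11972502 to 12118184), a late chaperone of complex I, had 21.9, 15.6, 19.6, 25.8 and 19.2 CPM in the 5 T0 libraries. For NDUFAF2, the lowest, median and highest CPM were 14.5, 18.6 and 23.5 in T1 and 19.4, 27.7 and 33.3 in T2. The T2 libraries were the high ones, and their lowest lay within the range of T1. It was 1.46-fold higher in T2 than in T1, 0.54 ± 0.12 (adjusted p = 0.00178), and higher in T2 than in T0 by 0.44 ± 0.14 (adjusted p = 0.0343). NDUFAF5, which modifies an arginine of a core subunit, had 6.22, 8.64, 5.21, 6.36 and 6.47 CPM in the 5 T0 libraries. For NDUFAF5, the lowest, median and highest CPM were 5.30, 6.40 and 7.97 in T1 and 5.83, 9.43 and 15.97 in T2. T2 was the most spread of the groups and overlapped both earlier ones. T2 libraries m15, m19 and m21, at 5.83, 7.87 and 8.27 CPM, lay below the T0 maximum, and m15 and m19 also below the T1 maximum. NDUFAF5 was higher in T2 than in T1 by 0.66 ± 0.15 (adjusted p = 0.00265) and in T2 than in T0 by 0.62 ± 0.18 (adjusted p = 0.0222).

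NDUFAF1, a core of the intermediate that builds the membrane arm, averaged 32.0 ± 4.75 CPM in T0, 31.8 ± 5.35 CPM in T1 and 43.5 ± 9.22 CPM in T2. It was higher in T2 than in T1 by 0.45 ± 0.13 (adjusted p = 0.00962) and in T2 than in T0 by 0.44 ± 0.15 (adjusted p = 0.0412). NDUFAF4 averaged 11.6 ± 2.20 CPM in T0, 11.9 ± 1.39 CPM in T1 and 15.6 ± 2.39 CPM in T2, with 0.38 ± 0.11 (adjusted p = 0.0103) in T2 minus T1 and 0.43 ± 0.13 (adjusted p = 0.0244) in T2 minus T0. TIMMDC1, a membrane arm factor despite its name, averaged 3.58 ± 0.382 CPM in T0, 4.50 ± 0.955 CPM in T1 and 4.91 ± 0.504 CPM in T2 and was higher in T2 than in T0 by 0.45 ± 0.13 (adjusted p = 0.0242), with no overlap between these groups. LYRM2 was higher in T2 than in T1 by 0.51 ± 0.18 (adjusted p = 0.0397) at a mean count of 20.4 per library. NDUFAF7, a methyltransferase of a core subunit, passed in no comparison, with 0.11, 0.25 and 0.36. In T2 minus T0, NDUFAF3 had 0.46 ± 0.18 (adjusted p = 0.076), NDUFAF6 0.36 ± 0.12 (adjusted p = 0.0508) and LYRM2 0.54 ± 0.22 (adjusted p = 0.0832).

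Among these calls, those of NDUFAF1, NDUFAF2, NDUFAF4 and NDUFAF5 in T2 minus T1 held in all 23 fits that left out 1 library. In T1 minus T0, NDUFAF3 ended without T0 libraries m9, m10 and m13 in turn (adjusted p up to 0.0672). NDUFAF6 ended in 14 of the 23 fits, those without T0 libraries m9, m10, m12 and m13, T1 libraries m1, m2, m3, m4, m5 and m11 and T2 libraries m16, m19, m20 and m22 (up to 0.13). LYRM2 in T2 minus T1 ended in 11 fits, those without T1 libraries m1, m3, m5, m6, m7 and m11 and T2 libraries m16, m18, m19, m20 and m21 (up to 0.0836). In T2 minus T0, NDUFAF1 ended without T0 libraries m8, m9, m10 and m13 and T2 libraries m16, m17, m18 and m22 (up to 0.099). NDUFAF2 ended there without T0 libraries m9, m10 and m13 and T2 libraries m16, m17 and m18 (up to 0.11). NDUFAF4 ended there without T0 libraries m9 and m13 (0.0897), NDUFAF5 without T0 libraries m10 and m13 (0.0546), and TIMMDC1 without T0 library m13 (0.0703).

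For complex III, the cytochrome bc1 complex, LYRM7 showed the largest T2 minus T0 value of all 54 genes. LYRM7 (ENSECAG00000023135, chromosome 14, 44204946 to 44226792) is the chaperone of the Rieske iron-sulphur protein before its insertion. It had 8.44, 5.22, 8.42, 5.94 and 5.96 CPM in the 5 T0 libraries. For LYRM7, the lowest, median and highest CPM were 6.17, 8.15 and 10.03 in T1 and 9.57, 12.8 and 19.4 in T2. All T2 libraries lay above all T0 libraries, and 1 T2 library fell within the range of T1. LYRM7 was 1.98-fold higher in T2 than in T0, log2 0.98 ± 0.16 (adjusted p = 0.00116), and 1.67-fold higher in T2 than in T1, 0.74 ± 0.13 (adjusted p = 0.000279). Its T1 minus T0 value of 0.24 ± 0.16 (adjusted p = 0.401) did not pass. Both calls held in every alternative processing tried and in all 23 fits that left out 1 library. Along with TIMMDC1 and COX14 it was among the 3 genes with no overlap between T2 and T0 and T2 higher (5.56%, against 0.944% of all genes).

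BCS1L, which inserts the Rieske protein, did not pass, with 0.29 ± 0.13 (adjusted p = 0.13) in T2 minus T0. UQCC1 (ENSECAG00000011605, chromosome 22, 26078101 to 26165576), which stabilises newly made cytochrome b, had 57.1, 56.4, 47.9, 63.6 and 50.8 CPM in the 5 T0 libraries. For UQCC1, the lowest, median and highest CPM were 65.2, 76.5 and 86.1 in T1 and 52.7, 75.1 and 88.3 in T2. All T1 libraries lay above all T0 libraries, and T2 overlapped T0 at its low end. UQCC1 was higher in T1 than in T0 by 0.44 ± 0.12 (adjusted p = 0.0241) and in T2 than in T0 by 0.41 ± 0.11 (adjusted p = 0.0195), and its T2 minus T1 value was -0.04 ± 0.10 (adjusted p = 0.817). The T1 minus T0 call ended without T0 libraries m10 and m13 in turn (adjusted p up to 0.0717). The T2 minus T0 call ended without T0 library m13 (0.0563). UQCC3, another cytochrome b factor, averaged 8.71 ± 1.83 CPM in T0, 11.1 ± 2.97 CPM in T1 and 8.54 ± 2.32 CPM in T2. Its T2 minus T1 value of -0.38 ± 0.17 (adjusted p = 0.0843) was the largest of those that did not pass in that comparison.

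**Figure D3:**
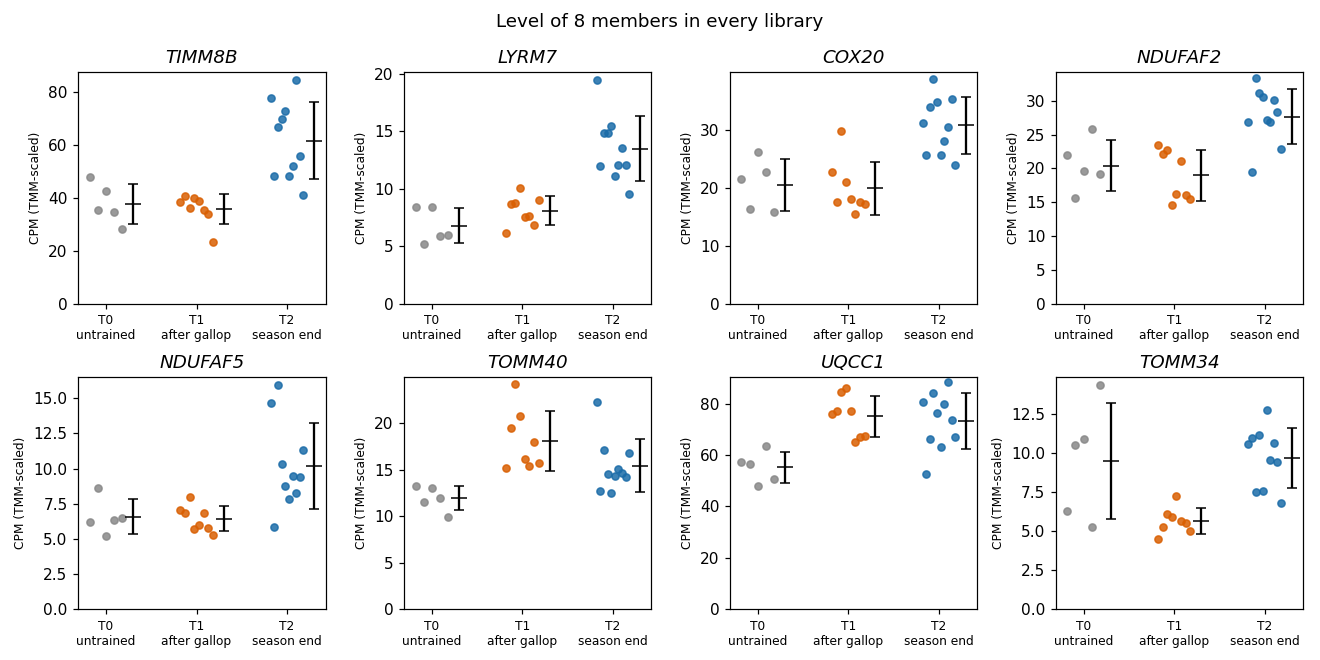
Points give the CPM of 8 genes in each library of T0, T1 and T2, and the black marks give the mean and SD of each group. TIMM8B, LYRM7, COX20, NDUFAF2 and NDUFAF5 are highest in T2, TOMM40 is highest in T1, UQCC1 has means of 55.2 ± 6.07 CPM in T0, 75.1 ± 7.92 CPM in T1 and 73.3 ± 10.9 CPM in T2, and TOMM34 is low in T1.

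Complex IV, cytochrome c oxidase, had the most factors in the set, 17 genes. In T1 minus T0, 1 was higher and 0 were lower, in T2 minus T1, 4 were higher and 1 was lower, and in T2 minus T0, 8 were higher and 0 were lower. The 8 higher in T2 than in T0 were COA1, COA3, COA5, COA6, COX10, COX14, COX20 and SCO2, and the 1 lower in T2 than in T1 was COX15, an enzyme of haem A synthesis.

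COX20 (ENSECAG00000008125, chromosome 30, 202302 to 203450), a chaperone of newly made COX2, had 21.5, 16.3, 26.2, 22.7 and 15.7 CPM in the 5 T0 libraries. For COX20, the lowest, median and highest CPM were 15.5, 17.8 and 29.8 in T1 and 23.9, 30.8 and 38.8 in T2. The T2 libraries lay above nearly all of T1, where m3 was the high one. COX20 was 1.55-fold higher in T2 than in T1, 0.63 ± 0.13 (adjusted p = 0.000993), and higher in T2 than in T0 by 0.59 ± 0.15 (adjusted p = 0.0129). COX16 and COX18 also serve COX2. COX16 was higher in T2 than in T1 by 0.42 ± 0.16 (adjusted p = 0.0473), and COX18 had 0.33 ± 0.15 (adjusted p = 0.106) there.

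COX14 and COA3 hold newly made COX1. COX14 had 66.0, 59.3, 62.6, 70.3 and 53.4 CPM in the 5 T0 libraries. For COX14, the lowest, median and highest CPM were 62.3, 77.7 and 132 in T1 and 70.6, 87.2 and 112 in T2. No T2 library reached down into T0, and T1 library m3 was far above the other T1 libraries. COX14 was higher in T2 than in T0 by 0.54 ± 0.15 (adjusted p = 0.0196). COA3 averaged 75.9 ± 8.20 CPM in T0, 87.8 ± 20.6 CPM in T1 and 100.6 ± 13.8 CPM in T2 and was higher in T2 than in T0 by 0.41 ± 0.14 (adjusted p = 0.0424). COA1, which also acts with new COX1, averaged 5.55 ± 0.884 CPM in T0, 7.79 ± 1.5004 CPM in T1 and 7.95 ± 1.41 CPM in T2. The gene was higher in T2 than in T0 by 0.51 ± 0.15 (adjusted p = 0.0235). Its T1 minus T0 value of 0.48 ± 0.15 (adjusted p = 0.0591) was the largest that did not pass in that comparison.

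Among the copper genes, COA6 (ENSECAG00000007238, chromosome 1, 76839928 to 76846718), which helps load copper onto COX2, had 11.6, 7.46, 9.21, 9.86 and 6.41 CPM in the 5 T0 libraries. For COA6, the lowest, median and highest CPM were 7.76, 10.1 and 14.4 in T1 and 10.9, 14.6 and 18.6 in T2. The T2 libraries were the high ones, with some overlap. COA6 was higher in T2 than in T1 by 0.49 ± 0.13 (adjusted p = 0.00726) and 1.64-fold higher in T2 than in T0, 0.71 ± 0.16 (adjusted p = 0.00583). SCO2, a copper chaperone of COX2, averaged 1.92 ± 0.236 CPM in T0, 2.46 ± 0.515 CPM in T1 and 2.71 ± 0.407 CPM in T2 and was higher in T2 than in T0 by 0.49 ± 0.16 (adjusted p = 0.0394). The related SCO1 did not pass, with 0.23 ± 0.13 (adjusted p = 0.221), nor did COX11, which brings copper to COX1, with 0.23 ± 0.13 (adjusted p = 0.234). COX19, thought to take part in copper handling, had 0.43 ± 0.23 (adjusted p = 0.286) in T1 minus T0 and did not pass, at 1.03 ± 0.248 CPM in T0, 1.40 ± 0.398 CPM in T1 and 1.15 ± 0.264 CPM in T2.

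COX10 and COX15 carry out successive steps of haem A synthesis, and their values had opposite signs in T2 minus T0. COX10 averaged 43.3 ± 9.22 CPM in T0, 52.9 ± 4.98 CPM in T1 and 55.7 ± 9.92 CPM in T2 and was higher in T2 than in T0 by 0.37 ± 0.13 (adjusted p = 0.0494). COX15 had 7.45, 10.4, 8.68, 8.80 and 10.5 CPM in the 5 T0 libraries. For COX15, the lowest, median and highest CPM were 7.53, 10.8 and 13.3 in T1 and 5.85, 7.41 and 10.8 in T2. It was low in T2, with overlap, and was lower in T2 than in T1, at log2 -0.46 ± 0.12 (adjusted p = 0.0047), while its T2 minus T0 value of -0.27 ± 0.13 (adjusted p = 0.17) did not pass. The difference between the 2 genes was not tested. SURF1, which aids haem insertion, passed in no comparison, with -0.03, 0.16 and 0.14. SURF1 overlaps SURF2 in the annotation, and COX15 lies 249 bases from CUTC.

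Of the remaining factors of complex IV, COA4 was higher in T2 than in T1 by 0.50 ± 0.12 (adjusted p = 0.00364), COA5 was higher in T2 than in T0 by 0.43 ± 0.11 (adjusted p = 0.0146), and COA7 was higher in T1 than in T0 by 0.38 ± 0.11 (adjusted p = 0.0379). COA7 had the smallest spread within groups of the 54 genes, an SD of log2 CPM of 0.145, and TOMM20L the largest, 0.475. With total counts the T1 minus T0 value of COA7 was -0.04. The calls of COX20, COX15, COA4 and COA6 in T2 minus T1, and of COX20, COA5 and COA6 in T2 minus T0, held in all 23 fits that left out 1 library. COA7 in T1 minus T0 ended without T0 libraries m9, m10, m12 and m13 and T1 libraries m2, m3 and m7 in turn (adjusted p up to 0.0927). COX16 in T2 minus T1 ended without T1 libraries m1, m2, m4, m5, m6, m7 and m11 and T2 libraries m14, m16, m17, m18, m22 and m23 (up to 0.105). In T2 minus T0, COA1 and COX14 ended without T0 library m13 (0.0701 and 0.0608). SCO2 ended there without T0 libraries m8, m9, m10 and m12 and T2 libraries m14, m16, m21 and m22 (up to 0.08). COA3 ended there without T0 libraries m8, m9, m10 and m13, T1 library m2 and T2 libraries m14, m16, m17, m18 and m22 (up to 0.112). COX10 ended there without T0 libraries m8, m9, m10 and m13, T1 libraries m2, m4, m5, m6 and m7 and T2 libraries m16, m17, m18, m19, m20, m22 and m23 (up to 0.129).

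The ATP synthase factors ATPAF1 and ATPAF2, which keep the beta and alpha subunits from clumping before the F1 head forms, passed in no comparison. ATPAF1 averaged 34.8 ± 3.13 CPM in T0, 33.0 ± 5.06 CPM in T1 and 35.0 ± 3.28 CPM in T2, and its T2 minus T0 value was 0.01 ± 0.10 (adjusted p = 0.952). ATPAF2 averaged 13.98 ± 3.60 CPM in T0, 15.7 ± 4.34 CPM in T1 and 14.1 ± 2.12 CPM in T2, with 0.01 ± 0.16 (adjusted p = 0.961). LYRM4, a partner of the iron-sulphur cluster enzyme, did not pass either, with 0.42 ± 0.21 (adjusted p = 0.171), nor did LYRM1, with 0.13 ± 0.20 (adjusted p = 0.669).

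LYRM5 and TOMM34 fall under the symbol rule and have other roles. LYRM5, a regulator of the electron transfer flavoprotein, averaged 19.1 ± 3.75 CPM in T0, 20.4 ± 2.57 CPM in T1 and 26.7 ± 4.29 CPM in T2. It was higher in T2 than in T1 by 0.39 ± 0.11 (adjusted p = 0.0118) and in T2 than in T0 by 0.49 ± 0.13 (adjusted p = 0.0159). The last call ended without T0 library m13 (0.0608). TOMM34 (ENSECAG00000020421, chromosome 22, 34092956 to 34110173), a cytosolic co-chaperone of heat shock proteins, was the 1 gene lower in T1 than in T0. It had 6.27, 10.5, 10.9, 5.30 and 14.4 CPM in the 5 T0 libraries. For TOMM34, the lowest, median and highest CPM were 4.47, 5.59 and 7.29 in T1 and 6.81, 10.1 and 12.8 in T2. The T1 libraries were low and close together, while 3 of the 5 T0 libraries were higher than all of them and 2 were within their range. TOMM34 was lower in T1 than in T0, at log2 -0.75 ± 0.19 (adjusted p = 0.0165), and higher in T2 than in T1 by 0.78 ± 0.16 (adjusted p = 0.001), and its T2 minus T0 value was 0.03 ± 0.18 (adjusted p = 0.94). The T1 minus T0 call ended without T0 libraries m10 and m13 in turn (up to 0.0781).

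Several library measures moved with these results. With the fibre score as a covariate, 0 of the 54 genes were higher and 0 lower in T1 minus T0, 4 were higher at an unadjusted p under 0.05, and the median log2 fold change was -0.02. Of all 11545 genes, 0 were then called higher and 2 lower in that comparison, against 412 and 386 without the covariate. For the 54 genes the counts were 21 higher and 2 lower in T2 minus T1. In T2 minus T0 they were 20 higher and 0 lower, and the calls of NDUFAF1, COX10, SCO2 and TOMM20 ended. Over all genes 1302 were then higher in T2 minus T1 and 700 in T2 minus T0, against 1450 and 777. The T1 scores overlapped those of neither other group. Fibre mix and time point therefore cannot be told apart in the comparisons with T1. In these bulk biopsies, fewer cells or fibres of a type and less RNA per cell cannot be told apart. In T2 minus T0, 7 of the 54 genes were higher without T0 library m13 and 15 without m9 or without m10. The count over all genes also changed there, to 306 higher without m13, 417 without m9 and 574 without m10, against 777 with every library. In T1 minus T0, 3 genes were higher without m9 and 1 without m10 or without m13, and 0 were lower without m10 or without m13. Over all genes 298 were higher without m9, 204 without m10 and 277 without m13, against 412. Without T1 library m3, whose fibre score is given above, 4 genes were higher in T1 than in T0, 24 higher in T2 than in T1 and 32 higher in T2 than in T0. Over all genes the counts higher were 356, 1852 and 1133 in these comparisons, against 412, 1450 and 777 with every library. The genes added in T2 minus T1 were COA3, COA5, COX18, TIMM10, TIMM17A, TIMM21, TIMM22, TIMM50, TOMM20 and TOMM7, and those added in T2 minus T0 were NDUFAF3, NDUFAF6, TIMM17A, TIMM44, TIMM50, TOMM40, TOMM6 and TOMM70A.

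**Figure D4:**
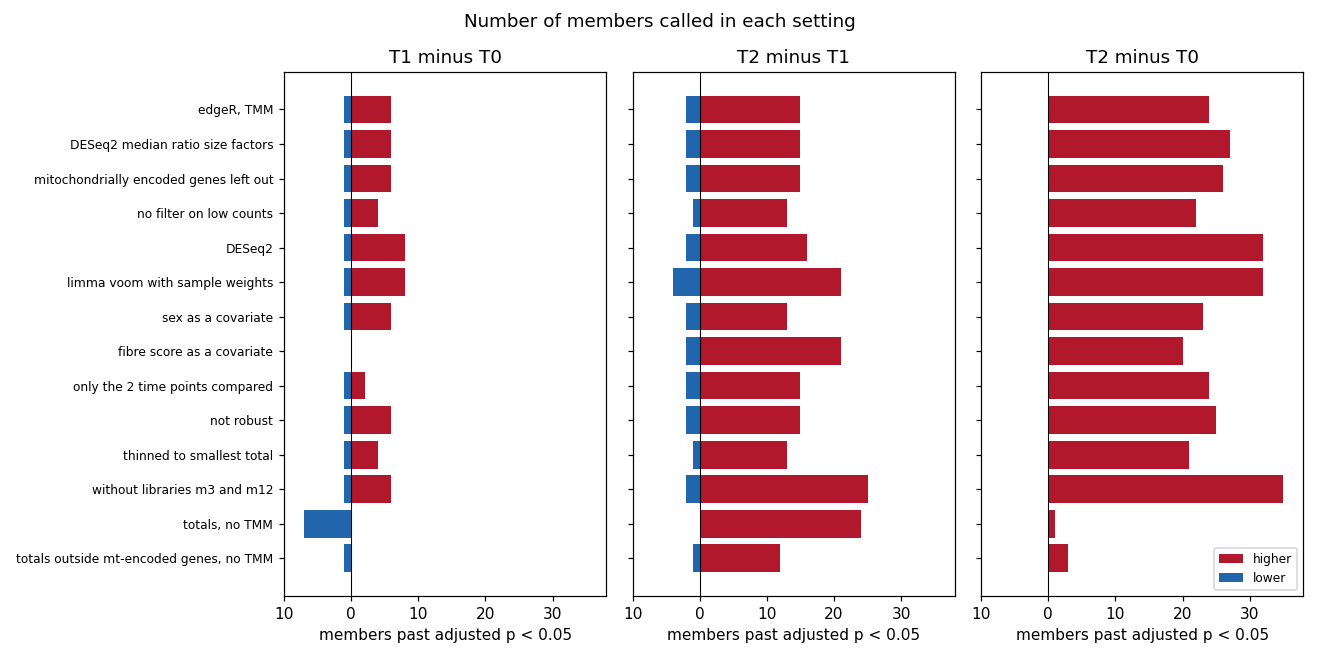
Bars give the number of the 54 genes higher (right of 0) and lower (left of 0) past an adjusted p of 0.05 in each comparison under each way of processing the counts. T2 minus T0 runs from 1 gene higher with total counts to 35 without libraries m3 and m12. Over all genes, T2 minus T0 had 46 higher with total counts and 1520 without libraries m3 and m12. T1 minus T0 has 0 of the 54 genes higher with the fibre score as a covariate and with both scalings by totals.

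Markers of other cell types in the biopsy were measured beside these genes. The summed level of 9 fibroblast markers was 118 to 477 CPM in T0, 85.1 to 238 CPM in T1 and 108 to 353 CPM in T2, with 3 markers lower in T1 than in T0 and 1 lower in T2 than in T0. For 8 smooth muscle and pericyte markers the sums were 143 to 480, 90.1 to 162 and 106 to 234 CPM. There 1 marker was lower in T1 than in T0, 1 was higher and 1 lower in T2 than in T1, and 4 were lower in T2 than in T0. For 7 endothelial markers they were 202 to 309, 173 to 252 and 152 to 245 CPM, with 0 called in any comparison. Adipocyte (3 markers), macrophage (4) and lymphocyte (1) sums overlapped between the groups, none of the markers was at 0 in any library, and markers of neutrophils and red cells were not analysed here. Among these, 1 adipocyte marker was higher in T1 than in T0, and 1 adipocyte, 1 macrophage and the 1 lymphocyte marker were lower in T2 than in T1. The part of these cells in the results was not tested.

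Other genes of the same pathways, listed by name and not by symbol prefix, were counted in the same way. Of 22 further import genes, 5 were higher and 0 lower in T1 than in T0, 2 higher and 3 lower in T2 than in T1, and 8 higher and 0 lower in T2 than in T0. The counts in T2 minus T1 are near the shares of all genes, 12.6% higher and 15.1% lower. The matrix chaperonin HSPD1 was higher in T1 than in T0 by 0.62 on the log2 scale (adjusted p = 0.00381) and in T2 than in T0 by 0.63 (0.00285). DNAJA3, a co-chaperone of the mitochondrial Hsp70, was higher in T1 than in T0 by 0.53 (0.00334), and AIFM1, which works with the disulphide relay of the intermembrane space, by 0.54 (0.0193). MTX2, of the outer membrane sorting machinery, was higher in T2 than in T1 by 0.44 (0.00239) and in T2 than in T0 by 0.51 (0.00761). PMPCA, a subunit of the presequence protease, was lower in T2 than in T1, at -0.41 (0.00537). IMMP1L, of the inner membrane peptidase, was higher there by 0.52 (0.0139). GRPEL1, the nucleotide exchange factor of the import motor, was higher in T2 than in T0 by 0.48 (0.00981).

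Of 23 further assembly genes, 3 were higher and 1 lower in T1 than in T0, 7 higher and 4 lower in T2 than in T1, and 7 higher and 0 lower in T2 than in T0. The 4 lower in T2 than in T1 are near the share of all genes, 15.1%. TMEM126B, a complex I assembly factor that works with NDUFAF1, was lower in T1 than in T0, at -0.52 (adjusted p = 0.0253) and higher in T2 than in T1 by 0.81 (4.28e-05). ATP5SL and TACO1, the translational activator of COX1, were higher in T1 than in T0 by 0.54 (0.0116) and 0.57 (0.0223). CMC2 and CHCHD7 were higher in T2 than in T1 by 0.68 (0.000246) and 0.68 (0.00124). In T2 minus T0, CHCHD7 was higher by 0.74 (0.00668), TMEM70, an ATP synthase assembly factor, by 0.52 (0.0127), and SMIM20, which acts on new COX1, by 0.47 (0.0167).

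Other sets of mitochondrial genes were counted in the same fit. Of 61 nuclear subunits of the respiratory chain and ATP synthase, 9 were higher in T1 than in T0, 6 in T2 than in T1 and 44 in T2 than in T0. Among them 0 were lower in any comparison, and the median log2 fold changes were 0.43, 0.16 and 0.54. Over all genes 3.57%, 12.6% and 6.73% were higher in these comparisons. The 6 subunits higher in T2 than in T1 do not exceed that share. Of 67 mitochondrial ribosomal proteins, 4 were higher in T1 than in T0, 23 higher and 2 lower in T2 than in T1, and 36 higher and 0 lower in T2 than in T0, with medians of 0.24, 0.25 and 0.44. The 33 mitochondrially encoded genes were all annotated genes of the mitochondrial genome, whether or not they encode protein. Of these, 1 was higher in T1 than in T0, 4 were lower in T2 than in T1 and 1 was higher in T2 than in T0. Their medians were 0.56, -0.22 and 0.34. The medians of the 54 genes were 0.21, 0.17 and 0.40 in the same comparisons, and differences between the sets were not tested.

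The sexes were compared in a model with time point, and 0 of the 54 genes differed between male and female libraries (edgeR, lowest adjusted p = 0.797, 0 of all genes called). DESeq2 and limma also called 0, and 2 genes had an unadjusted p under 0.05. No interaction of sex with time passed (edgeR, 0 of the 54 and 0 of all genes in each pair of time points), with 3, 0 and 0 genes at an unadjusted p under 0.05 in T1 minus T0, T2 minus T1 and T2 minus T0.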

How the data were processed

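Total RNA with an integrity number above 8.5 was made into libraries with a TruSeq RNA v2 kit, which does not mark strand, per the labels' protocols. Sequencing ran 50 cycles with 6 technical repetitions, whose pooling the labels leave out. FastQC, STAR, RSEM and DESeq2 are named, with no versions, per the submitters' processing notes. The authors deposited RSEM expected counts, already rounded to whole numbers. Their comparison tables, also deposited, give for each gene a log2 fold change with its error, raw and adjusted p-values and a mean normalized signal (the average normalized count). The genome build was not given in the sources used here; coordinates and symbols come from these tables, whose test results were not used here.

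Genes were kept by filterByExpr (minimum count 10, minimum total 15), which left 11545 genes with 99.93% of counts, then TMM-scaled. A single edgeR model (4.0.16, R 4.3.3) held all 3 time points, and its contrasts were tested by the robust quasi-likelihood F test, with Benjamini-Hochberg adjustment over all genes. The fit was tested on simulated data. Standard errors are the absolute log2 fold change divided by the square root of F. The 54 genes had counts of 8 to 2081 in a library, and 5 had a mean count under 50, where counting error weighs most. All 54 have 1 annotated transcript, so no isoforms were compared.

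Alternatives were size factors, no count filter, DESeq2 1.42.0, limma 3.58.1 voom with sample weights, sex or fibre score as covariates, pairs of time points alone, thinned counts and left-out libraries; the scalings by total counts were chosen after seeing the data. The 54 genes and the lists were chosen with earlier results of these data known. In each comparison the text names all genes past the threshold or, above 12 in a direction, at least the 12 with the smallest p, the 3 largest changes that did not pass and a panel fixed by role, and up to 3 called genes of each list. No promoter or protein sequences were used here.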

Additional observations from a re-analysis of the deposited data

Results flagged for a closer look

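A library lay far from the others of its group, by the gap to the nearest other library over the range of the group, in 21 of 168 values tested in groups of 5, 8 and 10 libraries, and chance gives about 1 in 20 such groups. The values share libraries and their scaling, so the 21 are not independent and cannot be set against 1 in 20 as a count. T1 library m3 was the far one in 16 of the 21, always on the high side. Its summed level of the 54 genes was 1707 CPM against 1316 CPM in the nearest library, and its fibre score was 3.85 against 0.379. The CPM values of m3 rest on a TMM factor of 0.660, the lowest of T1. As a share of total counts its 54 genes, at 0.113%, were within the T1 range of 0.106% to 0.128%.

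Among import genes, m3 had 30.8 CPM of TIMM10 (nearest 20.03), 40.1 CPM of TIMM13 (nearest 27.2), 45.7 CPM of TIMM17B (nearest 25.4), 41.2 CPM of TIMM50 (nearest 29.2), 81.4 CPM of TOMM6 (nearest 47.5), 123 CPM of TOMM7 (nearest 80.2) and 118 CPM of TOMM70A (nearest 88.9). Among assembly genes it had 25.4 CPM of ATPAF2 (nearest 17.8), 22.6 CPM of BCS1L (nearest 15.4), 135 CPM of COA3 (nearest 89.3), 6.22 CPM of COA4 (nearest 4.68), 132 CPM of COX14 (nearest 93.6), 11.1 CPM of COX16 (nearest 7.08) and 80.2 CPM of NDUFAF3 (nearest 48.1).

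The others were single genes in other libraries. T0 library m12 had 59.6 CPM of COX10 (nearest 41.4) and 7.42 CPM of LYRM1 (nearest 4.72). T1 library m4 had 13.2 CPM of NDUFAF6. T1 library m11 was low, with 23.4 CPM of TIMM8B (nearest 34.1). T2 library m14 had 22.3 CPM of TOMM40 (nearest 17.2).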

How the results depend on the processing

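No paired analysis was possible because the labels give running library numbers, of which T0, T1 and T2 share none, and do not say which libraries, if any, came from the same horse or batch. The counts of genes higher in T1 minus T0 (6) became 0 with the fibre score as a covariate, with total counts and with totals outside mitochondrially encoded genes, and 2 with only the 2 time points compared, and the 1 gene lower became 0 with the fibre score and 7 with total counts. In T2 minus T1 the 15 genes higher became 25 without libraries m3 and m12 and 24 with total counts, and the 2 lower became 1 with no filter on low counts, with thinned counts and with totals outside mitochondrially encoded genes, 4 with limma voom, and 0 with total counts. In T2 minus T0 the 24 genes higher became 1 with total counts and 3 with totals outside mitochondrially encoded genes. The counts over all genes moved too. With total counts 3250 were lower in T1 minus T0, against 386 with TMM, and 2073 higher in T2 minus T1, against 1450. In T2 minus T0, 46 were higher with total counts and 196 with totals outside mitochondrially encoded genes, against 777. COA7 in T1 minus T0 reversed to -0.0408 with total counts. Both total scalings set library sizes without TMM and were chosen after seeing the data; otherwise the cause was not tested. Leaving out 1 library at a time gave 1 to 7 higher and 0 to 1 lower in T1 minus T0, 13 to 24 higher and 1 to 3 lower in T2 minus T1, and 7 to 32 higher and 0 to 0 lower in T2 minus T0. T2 minus T1 had 1 gene lower without T1 library m2, m4 or m5 or T2 library m16 or m22. DESeq2 called 8 higher and 1 lower, 16 and 2, and 32 and 0 in these comparisons, and kept all 7, 17 and 24 calls. The counts with limma voom were 8 and 1, 21 and 4, and 32 and 0. Over all genes the numbers called higher also rose, to 650, 1646 and 1126 with DESeq2 and 767, 2143 and 1360 with limma voom. The main fit had 412, 1450 and 777. With sex as a covariate the counts were 6 and 1, 13 and 2, and 23 and 0. With counts thinned to the smallest total they were 4 and 1, 13 and 1, and 21 and 0. Over all genes 459, 1397 and 733 were higher with sex as a covariate and 339, 1262 and 628 with thinned counts. Without libraries m3 and m12, T2 minus T0 had 35 higher. Over all genes 1987 were then higher in T2 minus T1 and 1520 in T2 minus T0. In T2 minus T1, 10 of the 17 calls held in every alternative and every fit without 1 library, in T2 minus T0, 1 of 24 (LYRM7), and in T1 minus T0, 0 of 7. The sex comparison gave 0 calls in every alternative that applies to it, and the 2-time-point fits do not. Depth limits TOMM20L, LYRM2, COX19, LYRM4 and SCO2, with mean counts under 50.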

Other observations

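Further values of the import and assembly lists that the comparisons above did not describe are these. IMMP2L, of the inner membrane peptidase, was higher in T1 than in T0 by 1.03 on the log2 scale (edgeR, adjusted p = 0.0201), and OXA1L, the insertase of the inner membrane, was higher in T2 than in T0 by 0.52 (0.0116). MIPEP, a matrix peptidase, was higher in T2 than in T0 by 0.57 (0.0237). LRPPRC, which stabilises mitochondrial messenger RNA, had -0.42 in T2 minus T1 (0.0113), and NUBPL, which supplies iron-sulphur clusters to complex I, had -0.44 (0.027). SDHAF3, a complex II factor, was higher in T2 than in T1 by 0.50 (0.00592), and FOXRED1, a complex I factor, was higher in T2 than in T0 by 0.42 (0.0228). These genes were chosen after their values were seen.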
